A study of Mus musculus with 24 samples.

Results

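Livers of mice lacking both NEMO and KEAP1 in hepatocytes (NEMOΔhepa/KEAP1Δhepa, 3 arrays, called double knockout) were compared with livers of control mice (NEMOf/f, 3 arrays). These 6 samples were chosen by tissue and genotype from the 24 samples of the series, which also hold NEMOΔhepa and KEAP1Δhepa livers and hepatocytes of all 4 genotypes (8 groups of 3 arrays). All mice were males aged 8 weeks per the labels. Deletion was driven by Alfp-Cre, a transgene under albumin and alpha-fetoprotein control, crossed with floxed NEMO and floxed KEAP1 mice. The controls are given only as NEMOf/f, so that the labels state neither a floxed KEAP1 gene nor a Cre transgene for them. The labels do not say whether arrays came from littermates, and the p-values measure the spread between these arrays.

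Ikbkg encodes NEMO, the subunit through which the IKK kinases are activated. IKK in turn switches on NF-kB, which protects hepatocytes from death receptor signals. Livers without it are known for hepatocyte death, compensatory proliferation, inflammation and fibrosis. KEAP1 holds the transcription factor NRF2, encoded by Nfe2l2, for degradation, and its loss lets NRF2 drive genes of glutathione synthesis, quinone reduction and conjugate export.

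The deleted genes were read first. Ikbkg was at 6.86, 6.81 and 6.40 on controls 1, 2 and 3 and at 6.18, 6.47 and 6.31 on double knockouts 1, 2 and 3, on the log2 scale used for all levels here. The array labelled control 3 thus lay inside the double knockout range. Keap1 was at 6.04, 6.35 and 5.88 on the controls and 5.93, 5.75 and 5.82 on the double knockouts, with control 3 again inside the double knockout range. The position of the probes within these genes was not used here, and whole liver also holds cells in which Cre is not active, so both genes are weak checks of the labels.

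Of the 6 arrays, 2 stood apart. The array labelled control 3 carried double knockout levels of NRF2 targets: Nqo1, a quinone reductase, was at 4.71, 5.37 and 9.17 on the controls and at 9.25, 9.36 and 9.25 on the double knockouts. Double knockout 3 carried fat cell transcripts, with the fat cell hormone Adipoq at 7.17 against at most 2.58 on the other livers. It held 48 genes more than 2 log2 units above all 11 other livers, among them Retn (8.87 against at most 3.42), the brown fat uncoupler Ucp1 (6.74 against 3.04), the smooth muscle gene Cnn1 (6.93 against 3.31) and the duct keratin Krt7 (7.81 against 5.01). Retn, Ucp1, Cnn1 and Krt7 were chosen after their values were seen. The array labelled control 3 had 0 genes more than 1 log2 unit above or below all other livers. Results are given for all 6 livers and for the 4 livers that remain without control 3 and double knockout 3. Control 3 was doubted because of its levels of genes tested here, so its removal is not independent of the outcome, and the test over 4 livers describes what separates those 4 arrays.

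With all 6 livers, 1 of 18820 genes was called (limma, Benjamini-Hochberg adjusted p under 0.05), which is 0.00531%. That gene was Angptl8, an inhibitor of lipoprotein lipase made by the fed liver. It was at 8.65, 8.77 and 8.10 on the controls and 6.98, 6.87 and 7.08 on the double knockouts. The groups did not overlap, and it fell by 1.53 ± 0.17 (limma SE, n = 3 and 3, adjusted p = 0.0147). The unadjusted p was under 0.05 for 3901 genes (20.7%), where 941 would be reached without any difference. A fit with replicate number as a block called 799 genes (4.25%), of which 520 were higher (2.76%) and 279 lower (1.48%). Without control 3 alone 2207 genes were called (11.7%), without double knockout 3 alone 2 (0.0106%), and 0 without control 1, control 2, double knockout 1 or double knockout 2. The NEMOΔhepa and KEAP1Δhepa livers entered the estimate of the spread in all these fits. With only the 6 compared livers fitted, 0 genes were called, so that the call of Angptl8 was lost as well.

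With 4 livers, 1732 genes (9.2%) were called, 1198 higher (6.37%) and 534 lower (2.84%) in the double knockout. The count was 871 without control 1, 571 without double knockout 1 and 610 without double knockout 2. The split depended on the scaling: with each array centred on its median, 805 were higher and 2355 lower, and with quantile normalization 957 and 731. The median change of all genes was -0.04 as deposited and after quantile normalization, and -0.24 after median centring. Of the genes that the naming rule gave, 158 were called over 4 livers. None of the 158 changed sign without 1 of the 4 arrays or under median centring, and 90 stayed called whichever array was left out. The 158 were chosen by their calls over these same 4 arrays, so an unchanged sign was largely fixed by that choice. Of the 158, 9 lost the call under median centring, 9 without the intensity trend of the test and 5 with quantile normalization. For the other genes named, the loss of the call is given beside the gene or the count of its list. List counts over 4 livers stand beside 6.37% of all genes higher and 2.84% lower. A list with at most 1 gene called is close to those shares. List counts under median centring stand beside 805 higher and 2355 lower of 18820 genes. A rise in falls under that scaling was thus shared by genes at large.

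**Figure D1:**
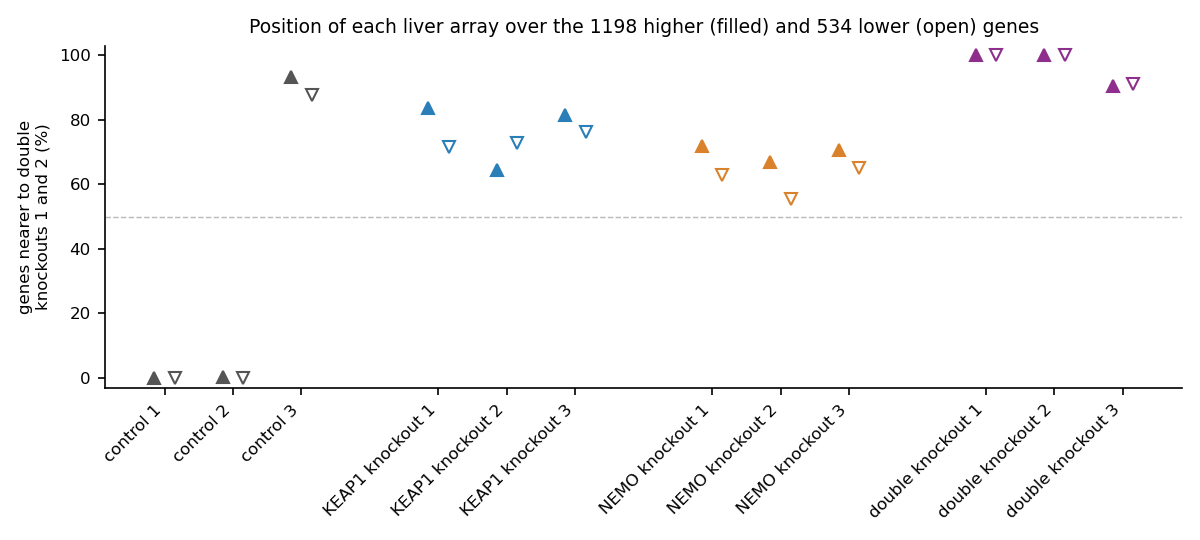
Each liver array (x axis) against the percentage of genes whose level lay nearer to the mean of double knockouts 1 and 2 than to that of controls 1 and 2 (y axis), for the 1198 higher genes (filled) and the 534 lower genes (open). Controls 1 and 2 and double knockouts 1 and 2 define the scale, and the array labelled control 3 lay at 93.2% and 87.6%, beside double knockout 3 at 90.5% and 91%.

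The position of the other arrays was read from the same 1732 genes. Control 3 and double knockout 3 took no part in that fit, while the KEAP1Δhepa and NEMOΔhepa livers entered its estimate of the spread. The array labelled control 3 lay nearer to double knockouts 1 and 2 for 1117 of the 1198 higher genes (93.2%) and 468 of the 534 lower genes (87.6%). Double knockout 3 did so for 90.5% and 91%. The KEAP1Δhepa livers lay between 64.4% and 83.7% for higher genes, and the NEMOΔhepa livers between 66.9% and 71.8%. Control 3 was thus placed with the double knockouts over most of these genes, and its share was above that of each single knockout array.

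Promoter sequence was read for the pooled NRF2 target lists and for the mitosis genes. Over 4 livers 40 of 62 measured NRF2 list members and 10 of 17 mitosis genes were called higher. A total of 27025 genes had a RefSeq promoter (GRCm38.p6), of which the 250 bases before the first listed start were searched on both strands. TGACNNNGC, the core of the antioxidant response element that NRF2 binds, was in 4 of 33 higher NRF2 list members with a promoter (12.1%; 33 of 40 had one), in 6 of 55 measured members (10.9%) and in 10.1% of all promoters. In windows of this length these letters were thus about as frequent in the NRF2 lists as elsewhere. TTTGAA, the cell cycle homology region of late cell cycle genes, was in 5 of 7 higher mitosis genes with a promoter (71.4%; 7 of 10 had one), in 7 of 14 measured mitosis genes (50%) and in 16.3% of all promoters. Shares over so few genes are given as counts, with no test. The matches are shown because they are the members of each set that hold the motif, in capitals, written 5′ to 3′ on the gene's strand, where GCNNNGTCA and TTCAAA are the same motifs on the other strand. One match is printed per gene.
Gclm, chr3:122245403-122245451, + strand: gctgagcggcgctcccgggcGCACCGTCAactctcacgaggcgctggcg
Prdx1, chr4:116685446-116685494, + strand: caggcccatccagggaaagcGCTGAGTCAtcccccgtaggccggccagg
Abcc2, chr19:43782190-43782238, + strand: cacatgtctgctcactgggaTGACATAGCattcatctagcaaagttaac
Abcc4, chr14:118706220-118706264, - strand: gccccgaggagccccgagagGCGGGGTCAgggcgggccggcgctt
Mki67, chr7:135716452-135716497, - strand: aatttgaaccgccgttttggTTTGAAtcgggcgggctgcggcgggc
Top2a, chr11:99024190-99024232, - strand: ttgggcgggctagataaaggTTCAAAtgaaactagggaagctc
Ccnb2, chr9:70421696-70421741, - strand: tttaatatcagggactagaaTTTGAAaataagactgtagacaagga
Kif11, chr19:37376343-37376381, + strand: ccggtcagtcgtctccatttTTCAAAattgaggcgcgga
Ckap2, chr8:22185895-22185940, - strand: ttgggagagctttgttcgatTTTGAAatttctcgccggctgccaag
A match describes the letters of the window and is not a measured binding site.

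**Figure D2:**
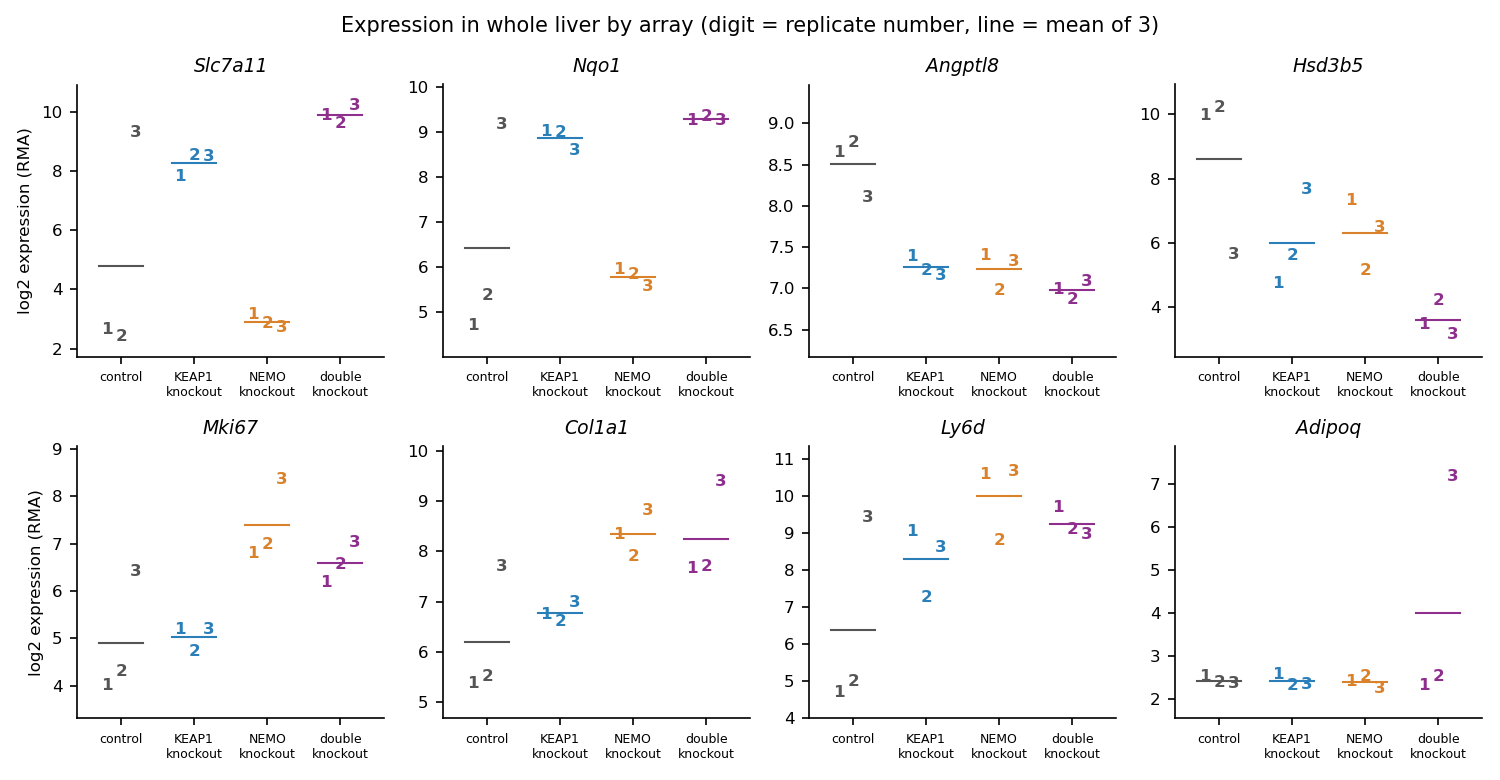
Log2 expression (y axis) of 8 genes on the 12 liver arrays by genotype (x axis), where each digit is a replicate number and each line the mean of 3 arrays. For Slc7a11, Nqo1, Hsd3b5, Mki67, Col1a1 and Ly6d the array labelled control 3 lies away from controls 1 and 2. Angptl8 and Hsd3b5 separate all 3 controls from all 3 double knockouts, as do Slc7a11 and Nqo1, where control 3 lies close below the double knockouts. Adipoq is high on double knockout 3 alone.

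Transcripts of cystine import and glutathione synthesis were higher over 4 livers. Control 3 had been left out for its levels of NRF2 targets. The p-values of such genes over 4 livers are thus not independent of that choice. Slc7a11, the cystine importer, was at 2.63, 2.42 and 9.29 on the controls and 9.87, 9.62 and 10.23 on the double knockouts. The double knockouts lay above all controls, but control 3 was within 1 log2 unit of them. The change was 5.13 ± 1.31 over 6 livers (limma, n = 3 and 3, adjusted p = 0.134; 0.0402 with the replicate block) and 7.22 ± 0.23 over 4 (n = 2 and 2, adjusted p = 7.68e-09), the largest rise of the latter. Of the 9 measured genes of glutathione synthesis and recycling, 8 rose over 4 livers and 0 over 6 (2 with the replicate block), with a median change of 1.15 over 4 livers and 0.86 over 6. They included the glutamate importer Slc1a1 (4.10), the peroxidase Gpx2 (6.77), and Gclc (1.26) and Gclm (0.74), the subunits of the enzyme that limits glutathione synthesis. Gpx2 was at 2.32, 2.30 and 9.16 on the controls and 9.10, 9.06 and 9.23 on the double knockouts, so that control 3 lay inside the double knockout range. Chac1, which degrades glutathione, had a change of 0.20 and was not called.

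Quinone and carbonyl reductases rose in 7 of 9 measured members over 4 livers, with a median of 1.74. Over 6 livers the median was 1.47 and 0 were called, or 1 with the replicate block. The count was 7 whichever of the 4 arrays was left out. That count was largely fixed by the removal of control 3 for its NRF2 target levels. The p-values of these and the following NRF2 lists over 4 livers are likewise not independent of it. Cbr3, a carbonyl reductase, was at 3.19, 2.92 and 9.76 on the controls and 9.94, 9.86 and 9.55 on the double knockouts. Its change was 6.84 ± 0.18 over 4 livers (limma, adjusted p = 1.63e-09) and 4.50 ± 1.29 over 6 (adjusted p = 0.137). Nqo1 rose by 4.26 ± 0.21, the carbonyl reductase Cbr1 by 3.12 and the aldehyde oxidase Aox1 by 1.17. Adh7 (-0.16) and Aldh1a1 (0.28) were not called.

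Export pumps rose in 7 of 8 members (5 without control 2 or double knockout 1). Abcc4, which exports bile acids and conjugates across the sinusoidal membrane, was at 4.13, 5.14 and 9.96 on the controls and 10.07, 10.03 and 10.33 on the double knockouts. It rose by 5.42 ± 0.30 over 4 livers (limma, adjusted p = 8.39e-07), beside smaller rises of Abcc5 (1.39), Abcc3 (1.03) and the canalicular pump Abcc2 (0.72). The thioredoxin and haem list rose in 8 of 11 members (5 without control 1, double knockout 1 or double knockout 2), led by sulfiredoxin, Srxn1 (3.03), biliverdin reductase Blvrb (1.77) and the lipase Abhd4 (1.56). Glutathione S-transferases rose in 7 of 17, with Gstm4 at 2.14 and Gstm2 at 2.04. In the pentose phosphate pathway, which supplies NADPH, 3 of 8 rose: Pgd (2.25), Tkt (0.74) and Taldo1 (0.67, not called without double knockout 1). Over 6 livers each of these 4 lists had 0 members called. With the replicate block 2 export pumps, 1 gene of the thioredoxin and haem list, 0 glutathione S-transferases and 2 genes of the pentose phosphate list were called higher, and 1 of the thioredoxin and haem list lower.

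Of 9 genes of the KEAP1 and NRF2 switch itself 0 were called (2 lower under median centring). Nfe2l2 was at 8.35, 8.42 and 8.50 on the controls and 8.45, 8.48 and 8.83 on the double knockouts, a change of 0.08 ± 0.10 over 4 livers (limma, adjusted p = 0.657). Of 13 IKK and NF-kB subunits 1 was called, a share near the 9.2% of all genes. It was Ikbkg, which fell by 0.51 ± 0.13 over 4 livers (limma, adjusted p = 0.0332). Its call was lost without control 1, control 2 or double knockout 1. Of 20 NF-kB target cytokines and chemokines 3 rose: the adhesion molecule Vcam1 (1.49), and Lcn2 (3.11) and the chemokine Ccl3 (1.38). The call of Lcn2 was lost whichever of the 4 arrays was left out, and that of Ccl3 without control 2, double knockout 1 or double knockout 2. Under median centring 2 of the 20 were called lower. Among 14 death receptor and apoptosis genes Mlkl, the effector of necroptosis, rose by 1.29, and Tnfrsf1a, the TNF receptor, by 0.60 (call lost whichever array was left out, and under median centring).

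Cell cycle genes were higher over 4 livers. In bulk liver, a change in the number of cells of a type and a change in RNA per cell cannot be told apart, here and for the cell type lists that follow. Mki67, a marker of cycling cells, was at 4.01, 4.29 and 6.41 on the controls and 6.18, 6.56 and 7.02 on the double knockouts, so that control 3 lay within the double knockout range. Its change was 1.69 ± 0.55 over 6 livers (limma, adjusted p = 0.146; 0.0318 with the replicate block) and 2.22 ± 0.40 over 4 (adjusted p = 0.00499; not called without double knockout 2). Of 17 mitosis genes 10 rose over 4 livers, with a median of 1.43, and 0 were called over 6 (6 higher with the replicate block). That count was 2 without control 1, 6 without control 2, 4 without double knockout 1 and 0 without double knockout 2. Of 14 replication genes 8 rose and 1, Tk1, fell (-0.68; call lost whichever array was left out), with the helicase subunits Mcm6 (1.73) and Mcm5 (1.41) and the clamp Pcna (0.81) staying called without each array. The count of rises was 3 without control 1 or double knockout 2 and 4 without double knockout 1. Of 14 G1 cyclins and kinases 3 rose, among them the inhibitor Cdkn2c (1.45) and the kinase Cdk6 (0.68). Of 15 p53 targets 6 rose (2 without control 2, double knockout 1 or double knockout 2, 2 under median centring, 3 with quantile normalization), among them the cell cycle inhibitor Cdkn1a (1.19) and Ddit4l (2.06), which stayed called whichever of the 4 arrays was left out.

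**Figure D3:**
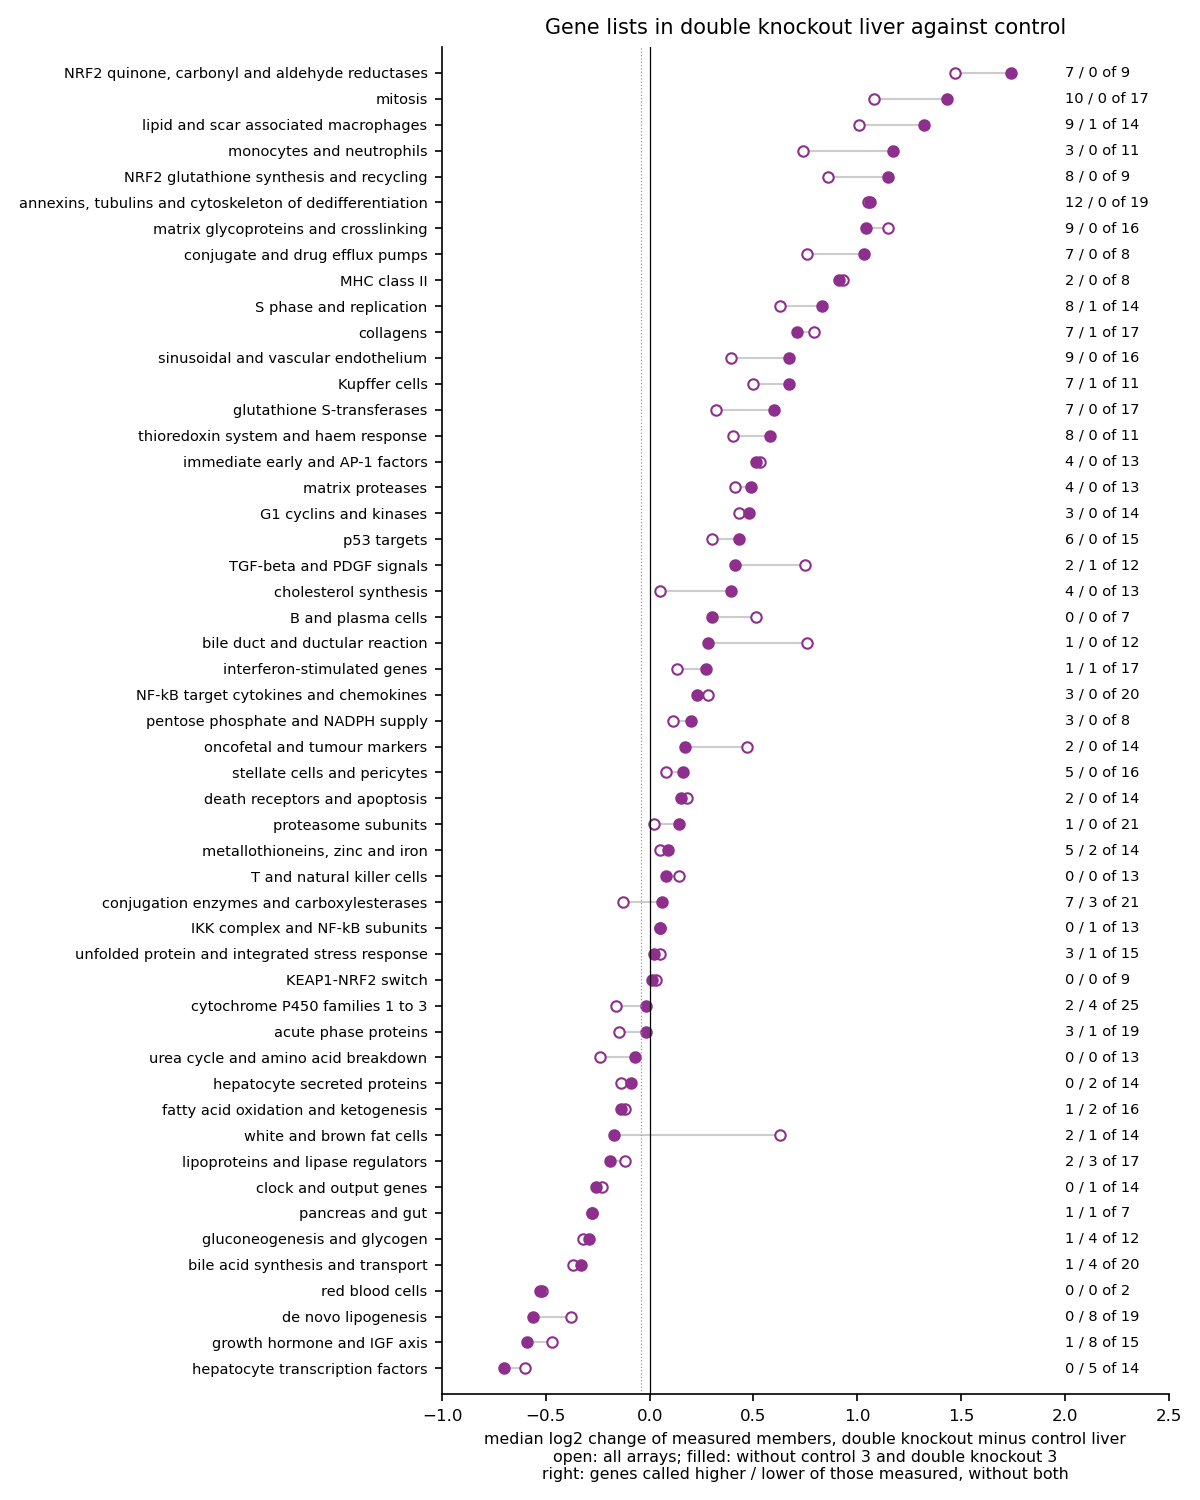
Median log2 change, double knockout minus control, of the measured members of each gene list (x axis) over all arrays (open) and without control 3 and double knockout 3 (filled), with the genes called higher and lower of those measured at the right and the median of all genes dotted. Reductases (1.74), mitosis (1.43) and lipid and scar associated macrophages (1.32) lie at the top, hepatocyte transcription factors (-0.70) at the bottom, and the fat cell list moves most between the fits.

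Matrix genes rose with macrophage markers. Col1a1, the main chain of fibrillar collagen, was at 5.38, 5.52 and 7.70 on the controls and 7.66, 7.70 and 9.39 on the double knockouts. Control 3 again overlapped the double knockouts, and double knockout 3 was the highest of the 6. The change was 2.23 ± 0.23 over 4 livers (limma, adjusted p = 0.000153) and 2.05 ± 0.57 over 6 (adjusted p = 0.134; 0.0213 with the replicate block). Over 6 livers the block called 7 collagens and 6 matrix glycoproteins higher, beside 2.76% of all genes. Of 17 collagens 7 rose and 1 fell, and 3 rose whichever of the 4 arrays was left out. Of 16 matrix glycoproteins 9 rose (5 without control 1, 3 without double knockout 1, 4 without double knockout 2). Col3a1 (1.78), Col1a2 (1.59), the matricellular Postn (1.33) and the proteoglycan Dcn (0.97) stayed called without each array. Acta2, the actin of activated stellate cells, rose by 2.12 ± 0.32 over 4 livers and was at 9.83 on double knockout 3, against 7.65 and 8.01 on double knockouts 1 and 2. Of 16 stellate cell genes 5 rose (2 without control 1, double knockout 1 or double knockout 2) and 0 fell (2 under median centring). The median change of the 16 was only 0.16 over 4 livers, with 11 positive and 5 negative changes, and -0.04 under median centring. Of 12 genes of TGF-beta and PDGF signals, which drive matrix production, Pdgfc rose by 1.19 and Tgfb1 by 0.86 (not called without control 1 or double knockout 2), and the activin subunit Inhba fell by 1.90.

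Of 14 markers of lipid and scar associated macrophages 9 rose and 1, Fabp5, fell (-1.74), with a median of 1.32. The elastase Mmp12 was at 4.61, 3.44 and 7.55 on the controls and 8.15, 7.45 and 7.58 on the double knockouts, a change of 3.78 over 4 livers that was not called without double knockout 1. The lipase Lpl (1.75) and the protease Ctsd (0.79) stayed called without each array. Of 11 Kupffer cell genes 7 rose (3 without control 1, 2 without double knockout 1 and 4 without double knockout 2) and 1 fell, with the scavenger receptor Marco up by 2.05 and the macrophage surface receptor Adgre1 by 1.22. Changes in this list ran from -1.37 to 2.05 with a median of 0.67, and 9 were positive and 2 negative. Sinusoidal and vascular endothelium rose in 9 of 16 (2 without control 1 or double knockout 2, 1 without double knockout 1, 5 under median centring). Of 11 monocyte and neutrophil genes 3 rose: the integrin Itgam, lysozyme Lyz2 (1.25) and the chemokine receptor Ccr2 (1.94). That count was 0 without control 2, double knockout 1 or double knockout 2. Of 8 MHC class II genes 2 rose, Cd74 (1.41) and H2-Ab1 (1.44), and 0 without control 2 or double knockout 2 (1 without double knockout 1). In T and natural killer cells 0 of 13 genes were called and in B and plasma cells 0 of 7.

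**Figure D4:**
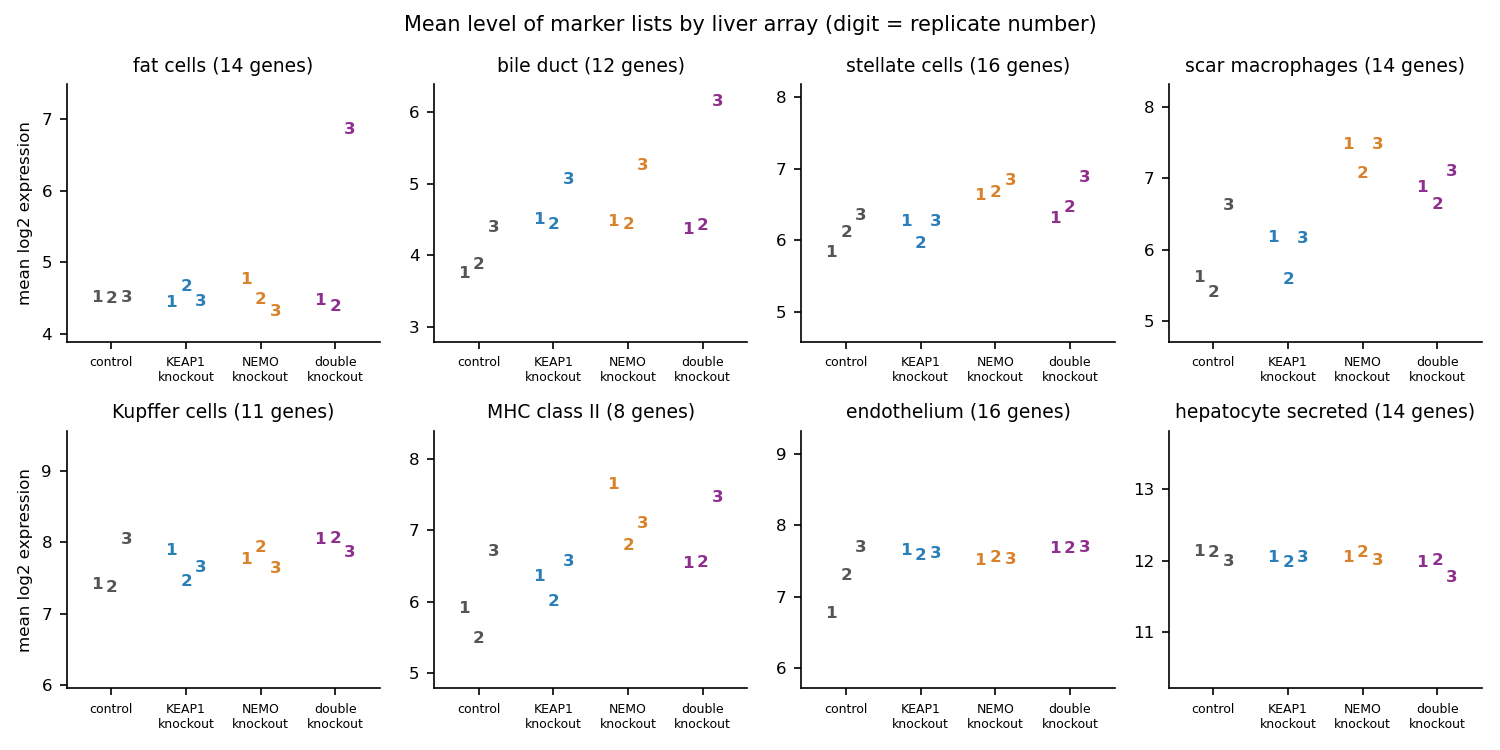
Mean log2 level (y axis) of the genes of 8 marker lists on each of the 12 liver arrays by genotype (x axis), where each digit is a replicate number. Double knockout 3 lies at 6.85 for fat cells, against 4.31 to 4.76 on the other livers, and at 6.15 for bile duct, against 3.75 to 5.26.

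Mean levels of the marker lists were read on each liver array. On double knockout 3 the mean level of 14 fat cell genes was 6.85, against 4.31 to 4.76 on the other livers, and that of 12 bile duct genes was 6.15, against 3.75 to 5.26. There, 8 of 14 fat cell genes, 5 of 12 bile duct genes, 4 of 16 matrix glycoproteins and 2 of 17 collagens were more than 1 log2 unit above all other livers, and 0 of the NRF2 list members were. The stellate cell list was at 6.88 on double knockout 3, and at 6.31 and 6.46 on double knockouts 1 and 2. The mean level of 16 endothelial genes was 6.77, 7.30 and 7.69 on the controls and 7.68, 7.67 and 7.69 on the double knockouts, so that control 1 was the low array and control 2 lay between. The part of these marker levels in the changes of other genes was not tested. Adipoq, over those 4 livers, had a change of -0.04 ± 0.16.

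Members of the growth hormone and IGF axis, hepatocyte transcription factors and lipogenesis genes fell over 4 livers, in the numbers given for each. Hsd3b5, a male-biased steroid enzyme, was at 9.96, 10.23 and 5.63 on the controls and 3.45, 4.21 and 3.16 on the double knockouts. All 3 double knockouts lay below all controls, and control 3 lay between. The change was -6.27 ± 0.79 over 4 livers (limma, adjusted p = 0.000628), the largest fall, and -5.00 ± 1.07 over 6 (adjusted p = 0.134; 0.0372 with the replicate block). Over 6 livers the block called 6 genes of the growth hormone list, 3 transcription factors and 6 lipogenesis genes lower. Of 15 growth hormone and IGF genes 8 fell and 1 rose, the rise being near the share of all genes. The falls were 5 without double knockout 1, and 0 rose without control 1, double knockout 1 or double knockout 2. Those that fell included the binding protein Igfbp2 (-2.70), the secreted Serpina12 (-3.59), Mup3 (-1.25), a urinary protein, and Socs2 (-2.51; not called without double knockout 1). Slco1a1, an organic anion importer, fell by 3.21.

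Of 14 hepatocyte transcription factors 5 fell over 4 livers (10 under median centring, where 2355 of all 18820 genes were called lower). Onecut1, also known as HNF6, was at 9.10, 9.45 and 6.50 on the controls and 6.50, 6.55 and 6.51 on the double knockouts. It fell by 2.75 ± 0.42 (limma, adjusted p = 0.00212), beside Foxa3 (-1.16), Cebpa (-0.97) and the bile acid receptor Nr1h4 (-0.78). Hnf4a had a change of -0.41 and was not called. Alb, the gene of albumin, was at 13.13 to 13.25 on the controls and 13.16 to 13.19 on the double knockouts (change -0.04 ± 0.08).

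Of 19 lipogenesis genes 8 fell and 0 rose (5 to 9 fell when 1 array was left out). Pklr, liver pyruvate kinase, was at 10.58, 10.48 and 9.32 on the controls and 8.99, 8.91 and 8.47 on the double knockouts, a fall of 1.58 ± 0.20 over 4 livers (limma, adjusted p = 0.000603). The desaturases Fads1 (-1.26) and Fads2 (-0.76) and the triglyceride enzyme Dgat2 (-0.89) fell as well. Srebf1, the gene of the lipogenic factor SREBP1, had a change of 0.01. Among lipoprotein and lipase genes G0s2, an inhibitor of triglyceride lipase, fell by 2.63, and the fatty acid receptor Cd36 rose by 3.08. Cholesterol synthesis rose in 4 of 13 genes over 4 livers, in 0 without double knockout 2 and in 1 under median centring.

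Single genes of drug metabolism changed. Of 25 cytochrome P450 genes of families 1 to 3, 2 rose, a share near that of all genes, and 4 fell. The falls were 2 without control 1, control 2 or double knockout 1, and 1 gene rose without control 1, double knockout 1 or double knockout 2. Cyp2a5, a coumarin hydroxylase, was at 10.14, 10.83 and 12.41 on the controls and 12.41, 12.58 and 12.58 on the double knockouts, a rise of 2.01 ± 0.23 over 4 livers (limma, adjusted p = 0.000352), with control 3 level with double knockout 1. Cyp2u1 (-1.16) and Cyp2d40 (-1.05) fell. Of 21 conjugation enzymes and carboxylesterases 7 rose and 3 fell, and under median centring 3 rose and 7 fell, so the balance of this list depended on the scaling. The rises were 3 without double knockout 2 and 4 without control 1 or double knockout 1, and the falls 1 without double knockout 1. Ugdh, which makes the sugar donor for glucuronidation, rose by 1.51, the carboxylesterase Ces1g by 1.35 and the glucuronosyltransferase Ugt2b35 by 1.17, and the sulfotransferase Sult5a1 fell by 2.49. Of 20 genes of bile acid synthesis and transport 1 rose, a share near that of all genes, and 4 fell. The falls were 8 under median centring, 1 without double knockout 1 and 2 without each of the other 3 arrays, and 0 rose without control 1, double knockout 1 or double knockout 2. Cyp7a1, the rate-limiting enzyme of bile acid synthesis, had a change of -0.79 ± 0.55 and was not called.

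Other stress groups had few members that stayed called. The zinc-binding metallothionein Mt2 was at 9.44, 6.59 and 11.31 on the controls and 11.52, 11.60 and 11.56 on the double knockouts. The double knockouts were alike, while controls 1 and 2 differed by over 2 log2 units, and the rise of 3.55 ± 0.90 (limma, adjusted p = 0.0292) was not called without control 2, double knockout 1 or double knockout 2. Of 19 acute phase genes 3 rose, Orm3 (3.20), Orm2 (2.63) and Lcn2, and 0 did without double knockout 1 or double knockout 2. Atf3, a stress-induced transcription factor, was at 4.82, 4.45 and 6.24 on the controls and 6.83, 6.47 and 6.27 on the double knockouts. Its rise of 2.01 ± 0.30 (limma, adjusted p = 0.00195) stayed called whichever of the 4 arrays was left out, as did that of the chaperone Dnajb9 (1.01). Of 13 immediate early and AP-1 genes 4 rose (2 without control 1, control 2 or double knockout 2, 1 without double knockout 1). Of 21 proteasome subunits 1 rose, Psmd14 (0.64), a share near that of all genes. Of 13 urea cycle and amino acid genes 0 were called (2 lower under median centring).

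Cytoskeletal and annexin genes rose in 12 of 19 members and fell in 0, with a median of 1.06 (9 to 14 rose when 1 array was left out). Over 6 livers 0 were called, and 11 with the replicate block. Anxa13, an annexin of epithelial cells, was at 3.75, 3.70 and 7.50 on the controls and 7.70, 7.54 and 7.25 on the double knockouts, a rise of 3.89 ± 0.20 over 4 livers (limma, adjusted p = 4.28e-07). The simple epithelial keratin Krt8 rose by 1.34 and Anxa1 by 2.07. Of the largest rises outside these lists, Sprr1a, a cornified envelope precursor, was at 4.28, 4.38 and 8.58 on the controls and 8.81, 8.57 and 9.02 on the double knockouts (change 4.35 ± 0.56). Ly6d, a surface protein listed with the bile duct and tumour markers, rose by 4.55 ± 0.60, the sterol-binding Osbpl3 by 4.11, Tinag by 4.10 and the copper ferroxidase Heph by 3.83. For each of Anxa13, Sprr1a, Ly6d, Tinag and Heph control 3 was above 7 and controls 1 and 2 were below 5. The other 11 bile duct and ductular genes were not called over 4 livers. Among the largest falls were Adgrf1 (-3.12), Nxpe2 (-2.63), the apolipoprotein Apoa4 (-2.59; not called without control 1 or double knockout 2) and Sdr9c7 (-2.49).

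The double knockout was then set beside each single knockout, which shares its arrays with the comparisons above. Against KEAP1Δhepa liver 10 genes (0.0531%) were called, 8 higher (0.0425%) and 2 lower (0.0106%), over the same livers without control 3 and double knockout 3. With all livers 0 were called (1429 at an unadjusted p under 0.05, limma), 5 without double knockout 1 and 6 without double knockout 2. With the replicate number as a block 37 were called. Slc7a11 was higher by 1.46 ± 0.21 (limma, adjusted p = 0.0397), Srxn1 by 0.76, Marco by 1.48 and Lpl by 1.23, while Serpina12 (-2.31) and Pklr (-1.26) were lower. The remaining 4 were Mpped1, Rab3b, Slc20a1 and 9430069I07Rik, chosen after their values were seen.

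Against NEMOΔhepa liver 651 genes (3.46%) were called, 361 higher (1.92%) and 290 lower (1.54%), and 197 with all livers, 214 without double knockout 1 and 222 without double knockout 2. Slc7a11 was higher by 6.85, Cbr3 by 6.39 and Nqo1 by 3.52, and 9430069I07Rik, on no list, by 6.40. Nfe2l2 was lower by 1.06 (limma, adjusted p = 3.99e-05), with 9.56, 9.40 and 9.61 on the NEMOΔhepa livers. Of 17 mitosis genes 1 was lower and all 17 had a negative change, from -1.57 to -0.42. Mki67 was at 6.80, 6.99 and 8.36 on the NEMOΔhepa livers and 5.19, 4.73 and 5.18 on the KEAP1Δhepa livers. The double knockout arrays, at 6.18 to 7.02, lay above the KEAP1Δhepa livers, and overlapped the NEMOΔhepa livers.

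Each genotype's own change against controls 1 and 2 is given side by side, since the controls are shared. The 9 reductases had medians of 1.74 in the double knockout, 1.35 in KEAP1Δhepa and 0.60 in NEMOΔhepa liver. The 17 mitosis genes had medians of 1.43, 0.22 and 2.28, with 10, 0 and 17 called higher, beside 6.37%, 3.71% and 8.48% of all genes. The 17 collagens had medians of 0.71, 0.48 and 0.93, and the 19 lipogenesis genes of -0.56, -0.45 and 0.10.

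**Figure D5:**
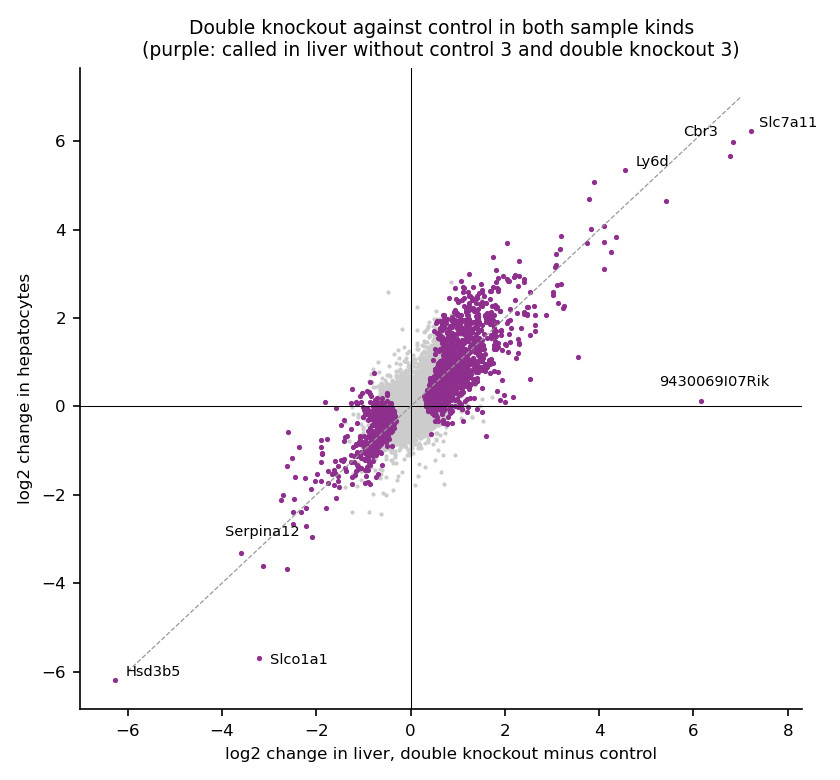
Log2 change of 18820 genes, double knockout minus control, in liver without control 3 and double knockout 3 (x axis) and in hepatocytes without control 1 and double knockout 3 (y axis), with genes called in liver in purple and equal changes dashed. Slc7a11 and Hsd3b5 lie near the dashed line at either end, and 9430069I07Rik changed by 6.16 in liver and 0.13 in hepatocytes.

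The same genotypes were compared in primary hepatocytes, which share no array with the livers. Hepatocytes were freed with collagenase and kept in culture to the next day. Hepatocyte control 1 and double knockout 3 were left out because their Xist levels went against the labelled male sex (9.65 and 9.76, against 2.00 to 2.56 on the 12 livers). In hepatocytes 1738 genes (9.23%) were called, 1212 higher (6.44%) and 526 lower (2.79%), and 834 without double knockout 2. Of the genes higher in liver 713 were higher in hepatocytes, which is 59.5% of the liver and 58.8% of the hepatocyte genes. Of those lower 199 were shared, 37.3% and 37.8%. Slc7a11 changed by 7.22 in liver and 6.23 in hepatocytes, Hsd3b5 by -6.27 and -6.19, and Mki67 by 2.22 and 2.98. Other lists went the other way. All 13 cholesterol synthesis genes had a negative change in hepatocytes, with a median of -0.40 beside 0.39 in liver. Immediate early and AP-1 genes had a median of -0.32 in hepatocytes and 0.51 in liver. Endothelial genes were higher in 14 of 16 members in the hepatocyte samples, with a median of 1.87, beside 0.67 in liver. Stellate cell genes were higher in 11 of 16 (median 1.08, beside 0.16 in liver), Kupffer cell genes in 8 of 11 (1.75 and 0.67) and lipid and scar associated macrophage genes in 11 of 14 (1.78 and 1.32). Markers of other cell types thus moved in the hepatocyte samples as well, and their part in the overlap with liver was not tested. Angptl8 had a change of -0.74 there and was not called (limma, adjusted p = 0.332). A test of the difference between tissues called 1 gene (0.00531%), 9430069I07Rik. With all arrays it called 13 other genes, all lower, and not 9430069I07Rik, and it called up to 72 genes without hepatocyte control 2, so other differences in size are given as values only.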

How the data were processed

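Whole liver and hepatocyte RNA was hybridised to 1-colour mouse arrays. Per probe set, the authors deposited a log2 value, for which the submitters' processing notes name RMA. The sources used here state neither the version of RMA nor which arrays were run through it together. Values ran from 0.51 to 13.62 and array medians from 4.03 to 4.23. Low values are compressed, and Xist, at 2.00 to 2.56 in liver, serves as a guide to background, so changes that start there are understated. Arrays have no read depth, and their number limits the precision. Scan dates were not used here.

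Of 35556 probe sets, 21218 had 1 gene symbol and were used; 1881 had several and 12457 were not listed. A gene with several probe sets (1386) took the one with the highest mean, giving 18820 genes, with no filter on low values. Differences were tested two-sided with limma 3.58.1 in R 4.3.3 (lmFit, eBayes with intensity trend) on all livers, so that 4 genotypes shared the spread, and were adjusted over all genes with the Benjamini-Hochberg method. The fit was tested on simulated data. Changes are log2 differences ± SE.

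Residuals of controls and double knockouts with the same number correlated at 0.115, 0.136 and 0.230, all above 0.1, so the block is given beside the comparison. Controls 1 and 2 correlated as much with double knockouts 2 and 1 (0.117 and 0.114), and 0.230 joins both doubted arrays.

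Members and the 51 gene lists (692 of 789 symbols measured) were chosen with earlier results of these data known. Named genes were those called over 6 livers, the 12 largest rises and falls called over 4 livers with all double knockouts beyond controls 1 and 2, up to 4 called members of each list by p, the 2 largest changes of a list without a call, and Ikbkg, Keap1, Nfe2l2, Nqo1, Slc7a11, Gclc, Gclm, Angptl8, Alb and Adipoq; other list members were named after their values were seen. Alternatives were the arrays fitted, the block, array weights, normalization, trend, low values, probe set choice and leaving out each array.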

Additional observations from a re-analysis of the deposited data

Results flagged for a closer look

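The change of 9430069I07Rik differed between tissues, by a test of the difference itself. It was at 9.45 and 8.31 on liver double knockouts 1 and 2, at 2.89 on liver double knockout 3 and at 2.04 to 2.97 on the other arrays, double knockout hepatocytes included. The liver change minus the hepatocyte change was 6.03 ± 0.46 (limma, adjusted p = 2.15e-06), with a change of 6.16 in liver without control 3 and double knockout 3. With double knockout 3 kept and control 3 left out, the liver change was 4.16 ± 1.34 (limma, adjusted p = 0.0677), so the call rests on 2 of 3 double knockout livers. With all arrays of both tissues the difference was 4.14 (limma, adjusted p = 0.363), and it was not called. It was also higher than in NEMOΔhepa (6.40) and KEAP1Δhepa liver (6.44).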

How the results depend on the processing

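Over 6 livers, the count of called genes was 1, and became 0 when only control and double knockout arrays were fitted, 799 with the replicate block, 771 with array weights and 1732 without both doubted arrays, and it ran from 0 to 2207 when 1 array was left out. Over 4 livers the count was 1732; it was 3160 with median centring and 1912 with the replicate block, and ran from 571 to 1472 when 1 array was left out. Against NEMOΔhepa liver 651 became 197 with all arrays and 584 with the block, and ran from 214 to 606 without 1 array. Against KEAP1Δhepa liver 10 became 0 with all arrays and 37 with the block, and ran from 5 to 13. In hepatocytes 1738 became 1397 with the block and ran from 834 to 1371. The difference between tissues called 1 gene, 13 with all arrays, and 1 to 72 without 1 array. The cause of these shifts was not tested, beyond the fewer arrays when 1 is left out. The block changed the counts by over 1.5 times over 6 livers and against KEAP1Δhepa liver. Of the 158 called genes of the naming rule, 0 changed direction without 1 of the 4 arrays, which their choice over those arrays largely fixed. The other named genes were not counted. An effect that follows the replicate number occurs in each genotype and was fitted as the block. With 2 arrays per group and no scan data, a batch effect that follows the groups cannot be told apart from genotype.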
